A study of Arabidopsis thaliana with 18 samples.

Results

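The comparison described here sets ros1-3 seedlings against ros1-4 seedlings, both kept in solvent without hormone (mock). It uses 6 of the 18 libraries of the series, 3 for each allele, chosen by their genotype and treatment labels. Both lines carry a mutant allele of ROS1, so neither group is a control for the other, and the contrast asks how 2 mutants of 1 gene differ in their messenger RNA. The plants were whole Arabidopsis thaliana seedlings 12 d old, submerged for 6 h in water with the solvent of abscisic acid (ABA). The other groups used beside the contrast were wild type in mock and both alleles after 6 h in 50 µM ABA, again with 3 libraries each. Each library came from a pool of 5 plants. The labels name no strain, no insertion and no further allele for either line, and nothing in them ties the pools to separate days of growth, so p-values measure only the spread between these pools.

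ROS1 encodes a DNA glycosylase that cuts 5-methylcytosine out of DNA, after which repair enzymes fill in an unmethylated base. In Arabidopsis it counters methylation laid down by the RNA-directed pathway and keeps some gene promoters, transposon borders and neighbouring genes from being silenced. EPF2, a secreted peptide that limits how many epidermal cells enter the stomatal lineage, is one of the genes whose promoter ROS1 is known to keep unmethylated.

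Reads were counted per gene. Counted reads per library were 3304038 to 4271849 in ros1-3 mock, 3920193 to 5096466 in ros1-4 mock and 3865324 to 10275773 in wild type mock. Multiply aligned reads made 6.53% to 9.45% of each file in ros1-3 mock and 3.46% to 4.62% in ros1-4 mock, so the alleles did not overlap in this share. On the second principal component of log2 CPM, which held 5.77% of the variance, ros1-3 mock libraries lay at -22.6, -10.3 and -18.9 and ros1-4 mock libraries at 19.0, 8.47 and 3.48. The 21 tested photosynthesis genes together took 53998 to 63425 CPM (counts scaled to library size) in ros1-3 mock and 56553 to 81028 in ros1-4 mock. The 15 tested root markers took 161 to 203 and 159 to 214 CPM. Of 8 seed and flower markers only PI passed the count filter, at 0.42 to 4.46 CPM over the 6 libraries.

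Among the differences with the smallest p were some in neighbouring gene copies on chromosome 2, and 2 stretches of coding sequence show how alike such copies are. SEH (AT2G26740), a soluble epoxide hydrolase that opens the epoxide ring of fatty acids, lies at chr2:11392849-11394363 on the minus strand. AT2G26750, an alpha/beta hydrolase, is its neighbour at chr2:11395707-11397219 on the same strand. Their coding sequences are identical at 95.0% of 961 aligned bases, with a longest identical run of 178 bases. The first 120 coding bases of each, read 5′ to 3′ from the RefSeq annotation of TAIR10.1, differ at the 4 bases in capitals.
SEH: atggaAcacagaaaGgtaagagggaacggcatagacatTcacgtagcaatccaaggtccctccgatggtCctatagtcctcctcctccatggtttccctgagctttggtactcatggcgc
AT2G26750: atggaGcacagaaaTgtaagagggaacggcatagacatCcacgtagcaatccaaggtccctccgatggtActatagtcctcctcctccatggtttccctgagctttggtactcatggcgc
AT2G35810 and AT2G35830 are annotated as ureidoglycolate hydrolases, enzymes of purine breakdown. They lie at chr2:15048885-15050323 and chr2:15052199-15053276 on the plus strand, with another copy, AT2G35820, between them. The outer copies are identical at 95.2% of 558 aligned bases, and the middle copy is identical to them at 83.9% and 84.0%. Coding bases 43 to 162 of AT2G35810 and 1 to 120 of AT2G35830 differ at the 11 bases in capitals.
AT2G35810: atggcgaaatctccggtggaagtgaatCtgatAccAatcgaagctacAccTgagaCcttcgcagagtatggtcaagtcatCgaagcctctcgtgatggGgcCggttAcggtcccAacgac
AT2G35830: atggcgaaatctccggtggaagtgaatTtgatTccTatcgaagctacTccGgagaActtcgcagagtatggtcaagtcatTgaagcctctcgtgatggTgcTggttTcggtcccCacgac

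The 250 bases before the gene start were read for the members whose difference was of special interest, with each CG dinucleotide, the context whose methylation MET1 maintains, in capitals. The SEH promoter stretch is chr2:11394364-11394613 on the minus strand and that of AT2G26750 is chr2:11397220-11397469 on the minus strand, while that of EPF2 is chr1:12472618-12472867 on the plus strand. All are given 5′ to 3′ from RefSeq, TAIR10.1.
SEH: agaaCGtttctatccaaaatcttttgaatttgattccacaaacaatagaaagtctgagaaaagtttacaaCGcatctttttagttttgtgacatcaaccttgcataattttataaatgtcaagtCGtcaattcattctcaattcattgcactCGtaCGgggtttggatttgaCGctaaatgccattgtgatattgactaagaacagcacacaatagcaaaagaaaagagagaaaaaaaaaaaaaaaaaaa
AT2G26750: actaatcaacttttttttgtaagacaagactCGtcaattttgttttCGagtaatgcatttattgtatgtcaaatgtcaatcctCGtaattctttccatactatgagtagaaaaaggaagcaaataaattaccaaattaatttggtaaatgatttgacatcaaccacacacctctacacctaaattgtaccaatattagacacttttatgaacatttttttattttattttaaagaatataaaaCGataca
EPF2: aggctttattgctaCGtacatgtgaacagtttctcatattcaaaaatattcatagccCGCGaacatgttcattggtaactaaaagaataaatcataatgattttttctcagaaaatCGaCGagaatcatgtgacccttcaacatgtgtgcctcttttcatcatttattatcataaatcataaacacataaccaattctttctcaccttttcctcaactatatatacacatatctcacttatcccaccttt
The motif counted was CG, which reads the same on both strands. SEH has 6 in this window, AT2G26750 has 4 and EPF2 has 5. Of 15596 promoters of tested protein-coding genes, 41.7% hold at least 6, 66.0% at least 4 and 53.4% at least 5. The median was 5 over all of them and 5 over the 187 promoters of genes that differed between the alleles, and methylation itself was not measured in these libraries.

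ROS1 messenger RNA was present in both mutants, below wild type, and was higher in ros1-3 than in ros1-4. The gene (AT2G36490) lies at chr2:15307907-15314807 on the minus strand. Its levels were 51.2, 53.4 and 57.7 CPM in ros1-3 mock, 38.4, 31.5 and 33.5 CPM in ros1-4 mock and 94.6, 82.6 and 86.1 CPM in wild type mock. The 3 groups did not overlap, and the order from low to high was ros1-4, ros1-3, wild type. The log2 fold change of ros1-3 against ros1-4 was 0.64 (SE 0.12, adjusted p by edgeR = 0.00657). Under ABA it was 0.40 (SE 0.12, adjusted p by edgeR = 0.0704), which did not pass. With the share of multiply aligned reads as a covariate the mock call was lost (log2 0.56, adjusted p by edgeR = 0.113). In bulk seedlings fewer cells that express a gene and less RNA per cell cannot be told apart. Whether the reads in the mutants cover the whole transcript cannot be read from a count per gene.

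**Figure D1:**
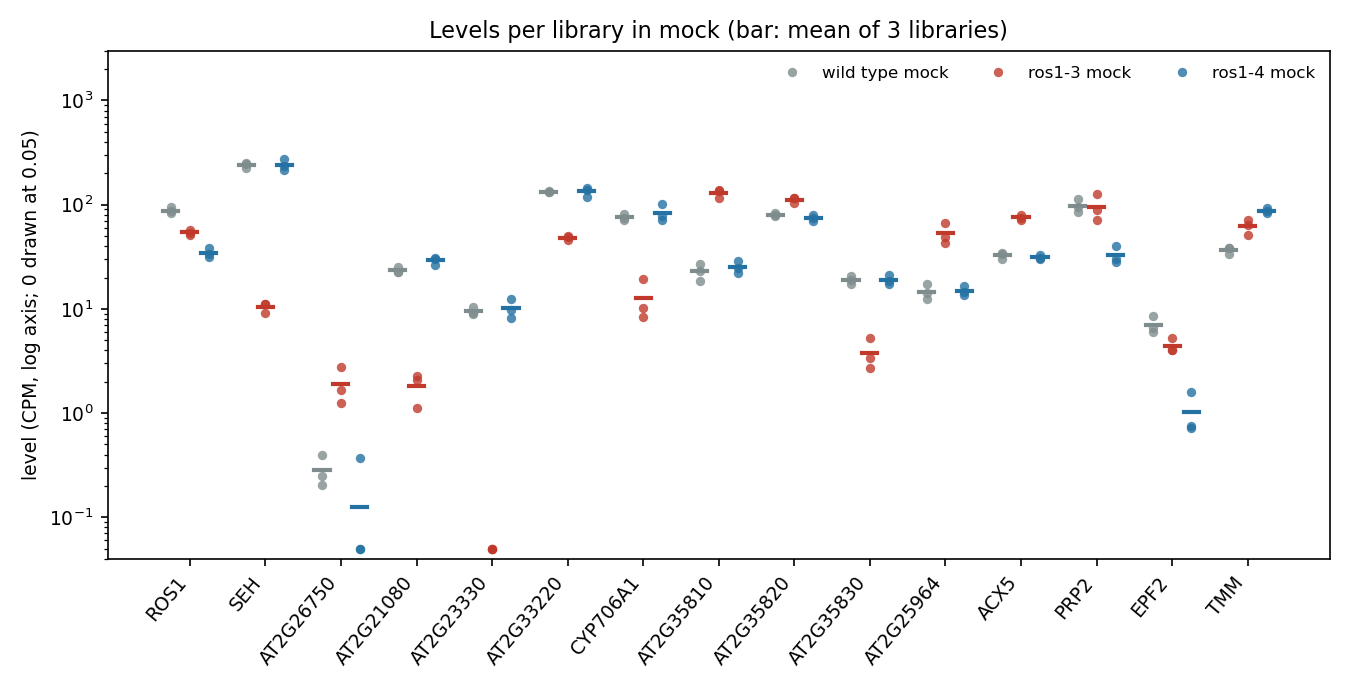
Level of 15 genes in each mock library (points, CPM on a log axis, with 0 drawn at 0.05) and the mean of 3 libraries (bar) in wild type (grey), ros1-3 (red) and ros1-4 (blue). SEH stands at 9.2 to 11.1 CPM in ros1-3 and at 214 to 274 CPM in ros1-4, where wild type is at 227 to 252 CPM.

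Of 15853 tested genes 201 (1.27%) differed between the alleles in mock at a Benjamini-Hochberg adjusted p under 0.05 by edgeR's quasi-likelihood F test. Of these, 84 (0.53%) were higher and 117 (0.738%) lower in ros1-3. All 201 had libraries that did not overlap between the alleles, which held for 2599 (16.4%) of all tested genes. At least a 2-fold difference was found in 73 (0.46%) of all tested genes, 34 higher and 39 lower, and the median absolute log2 fold change of the 201 was 0.74. When that share of multiply aligned reads entered the fit as a covariate, 80 genes were called. The alleles did not overlap in that share, so a call can be lost through a wider SE as well as through a smaller difference. For example, the log2 fold change of IRT1 was 3.12 (SE 0.65) without the covariate and 3.22 (SE 0.82) with it. That of TMM was -0.49 (SE 0.10) without it and -0.29 (SE 0.12) with it. Of the genes described here with values, ROS1, TMM, MET1, MAF5, IRT1, NAS1, NAS4, MSRB5, BGLU35, TGG2, CESA1, COB, THE1, POM1, RALF23, AGP18, HTB2, ENODL8, AT1G64650, AT2G26750, AT2G07732 and AT3G41768 lost their call in that fit, while SEH, AT2G35810 and EPF2 were among those still called. TMM, CESA1, COB, THE1, POM1 and AT1G64650 also lost it when only the libraries of the groups compared were fitted. The count was 116 without ros1-3 mock replicate 1, 120 without ros1-3 mock replicate 3 and 126 without ros1-4 mock replicate 2.

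**Figure D2:**
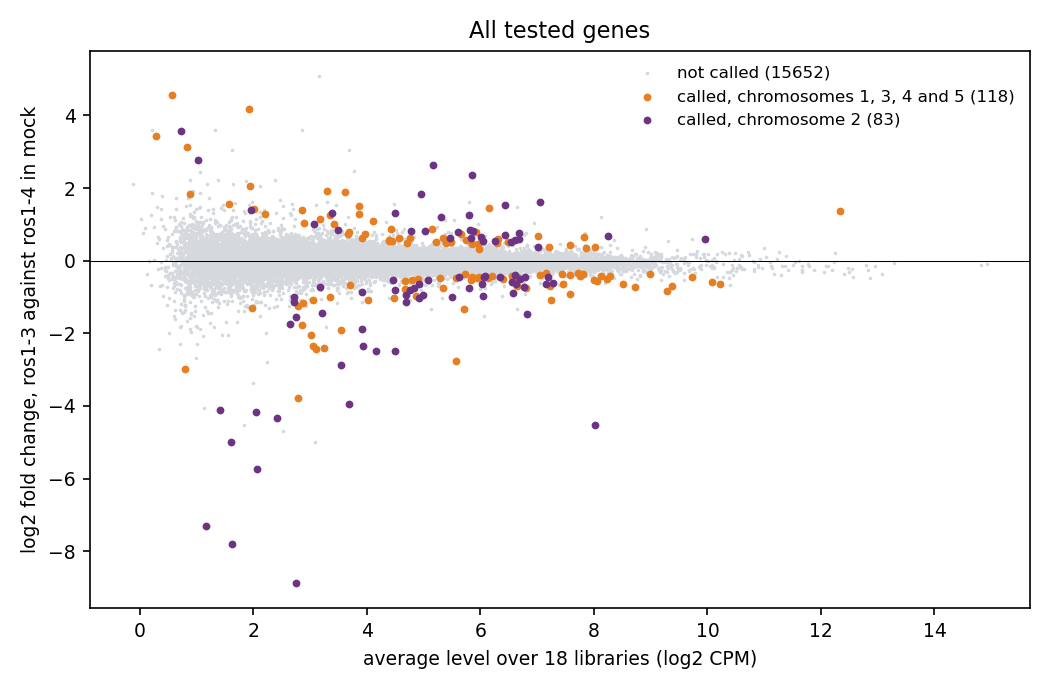
Log2 fold change of ros1-3 against ros1-4 in mock (vertical axis) by average level over 18 libraries (horizontal axis, log2 CPM) for every tested gene. Grey points did not pass the test, orange points are the 118 called genes of chromosomes 1, 3, 4 and 5, and purple points the 83 of chromosome 2, which include all called genes below a log2 fold change of -4.

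Genes with few or no counted reads in ros1-3 but present in ros1-4 and wild type made up the lower end. No read was counted in ros1-3 mock for 3 called genes. AT2G23330, annotated as a pseudogene, at chr2:9927826-9932319, stood at 9.76, 8.24 and 12.5 CPM in ros1-4 and 9.01, 10.5 and 9.15 CPM in wild type. It was at least 42.5-fold lower in ros1-3, computed against 3 counts over the group. AT2G24755, a non-coding RNA locus, had 5.38, 4.6 and 4.67 CPM in ros1-4 and was at least 20.1-fold lower. AT2G21840, a protein with Cysteine/Histidine-rich C1 domains of the kind that can bind zinc, had 3.38, 3.39 and 3.55 CPM in ros1-4 and was at least 14.2-fold lower. The fitted log2 fold changes of these genes passed the test in both treatments. AT2G24755 has 3 transcript models, and its reads kept in ros1-4 mock were 69 in the third and 2 in the second. Reads that fit more than 1 model were not counted, so its value does not stand for the whole locus. Bounds and the intervals that follow cover counting error only.

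A further 4 of the largest falls had 1 or 2 counted reads in ros1-3 mock in all. TO1, a mitochondrial thioredoxin that reduces disulfides in other proteins, was at 7.77, 2.91 and 5.42 CPM in ros1-4 and at 0, 0.252 and 0 CPM in ros1-3. The ratio of ros1-4 to ros1-3 was 68 (95% counting interval 11.9 to 2720), and in wild type TO1 stood at 6.26, 6.16 and 4.87 CPM. The ratio was 40.8 (6.98 to 1640) for the non-coding RNA locus AT2G30945. It was 22.5 (5.93 to 191) for AT2G32140, annotated as a transmembrane receptor, and for GLTP1, which moves glycolipids between membranes, it was 19.5 (5.11 to 166). In these 4 genes wild type lay near ros1-4, between 1.75 and 6.26 CPM in every library. TO1 and GLTP1 have 2 transcript models each, and reads that fit both were not counted. For TO1 the first model had 0 reads in ros1-3 mock and 80 in ros1-4 mock, and the second had 1 and 0. For GLTP1 all counted reads lay in the first model, 2 and 46. The values of TO1 and GLTP1 thus do not stand for the whole gene.

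SEH had the smallest p of the genes lower in ros1-3. Its levels were 11.1, 11.1 and 9.2 CPM in ros1-3 mock, 214, 237 and 274 CPM in ros1-4 mock and 227, 252 and 246 CPM in wild type mock. The alleles were far apart, and wild type overlapped ros1-4. The log2 fold change was -4.52 (SE 0.17, adjusted p by edgeR = 5.43e-14) in mock and -4.33 (SE 0.15, adjusted p by edgeR = 1.11e-14) under ABA. Its copy AT2G26750 went the other way, at 1.26, 2.77 and 1.67 CPM in ros1-3 against 0, 0 and 0.374 CPM in ros1-4, a ratio of 13.5 (95% counting interval 3.34 to 118). Reads of such near-identical copies can be dropped or assigned to the other copy, so each single value is uncertain. Their sum was 12.4 ± 1.49 CPM in ros1-3, 242 ± 30.5 CPM in ros1-4 and 242 ± 12.9 CPM in wild type (mean ± SD, n = 3 each). Reads dropped as multiply aligned are not in this sum, and their part in the difference was not tested. The call for AT2G26750, which was named after its values were seen, was lost by DESeq2 (log2 3.78) and without ros1-3 mock replicate 2 (3.20) or 3 (3.64) or ros1-4 mock replicate 1 (3.03) or 2 (3.15).

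The trio of ureidoglycolate hydrolase copies formed one of the 3 longest runs of neighbouring tested genes that were all called. AT2G35810 stood at 137, 117 and 135 CPM in ros1-3 mock, 29.1, 22.1 and 24.9 CPM in ros1-4 mock and 27, 23.2 and 18.4 CPM in wild type mock. Its log2 fold change was 2.35 (SE 0.12, adjusted p by edgeR = 2.03e-11). AT2G35830 had 2.73, 5.29 and 3.35 CPM in ros1-3 mock and 21.3, 17.2 and 18.7 CPM in ros1-4 mock, with a log2 fold change of -2.35 (SE 0.20, adjusted p by edgeR = 1.25e-07). So the outer copies, which share most of their bases, differed in opposite directions. AT2G35820, the middle copy, was higher in ros1-3, at 116, 115 and 103 CPM against 73.7, 69.8 and 79.8 CPM (log2 0.58, SE 0.08, adjusted p by edgeR = 0.000128). The sum of the outer copies was 133 ± 9.95 CPM in ros1-3, 44.4 ± 5.61 CPM in ros1-4 and 41.8 ± 3.51 CPM in wild type, and that of all 3 was 245 ± 9.84, 119 ± 8.46 and 122 ± 3.09 CPM (mean ± SD, n = 3 each). The sum of counted reads over the copies was thus higher in ros1-3 as well. AT2G35830 has 2 transcript models, and all its counted reads lay in the second, 46 in ros1-3 mock and 278 in ros1-4 mock. Reads that fit both models were not counted, so the part of this copy in the sums is understated.

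The other 2 runs of 3 genes were lower in ros1-3 throughout. On chromosome 2, AT2G21840, AT2G21850 and AT2G21860 lie together at chr2:9307024-9320024. AT2G21850, another C1 domain protein, had 0.21, 0 and 0.836 CPM in ros1-3 and 6.17, 5.09 and 7.29 CPM in ros1-4 (log2 -4.17, SE 0.47, adjusted p by edgeR = 1.06e-05). AT2G21860, a violaxanthin de-epoxidase-like protein, had 3.99, 5.79 and 2.51 CPM against 22.7, 26.9 and 20 CPM (log2 -2.47, SE 0.21, adjusted p by edgeR = 1.3e-07). AT2G21850 and AT2G21860 overlap on opposite strands, and no source used here says if counting was by strand, so their reads cannot be fully told apart. On chromosome 1, ENODL8, an early nodulin-like protein, AT1G64650, a membrane transporter of the major facilitator superfamily, and MGL, which cleaves methionine, had log2 fold changes of -0.46, -1.08 and -1.09. MGL lost its call without ros1-3 mock replicate 1 (-0.90), and the calls of ENODL8 and AT1G64650 were lost in 8 of 15 and 8 of 14 alternatives. A further 5 pairs of neighbouring called genes all lay on chromosome 2, and in 3 of them the members differed in opposite directions.

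Among the genes lower in ros1-3, those well above the count filter can be read library by library. AT2G21080, annotated as a Ras guanine nucleotide exchange factor K, stood at 2.1, 2.27 and 1.11 CPM in ros1-3 and at 30.5, 26.7 and 30.3 CPM in ros1-4 (log2 -3.95, SE 0.19, adjusted p by edgeR = 1e-11). AT2G33220, the GRIM-19 subunit of mitochondrial complex I, stood at 46.2, 50.4 and 48.5 CPM against 145, 138 and 119 CPM (log2 -1.47, SE 0.09, adjusted p by edgeR = 1.91e-10). AT2G21045, a rhodanese-like protein of the family that can transfer sulfur, had 2.73, 3.27 and 2.23 CPM against 24.5, 15.8 and 20.2 CPM (log2 -2.87, SE 0.23). In each of these wild type lay near ros1-4, at 22.6 to 25.5, 132 to 134 and 17.1 to 22.8 CPM. CYP706A1, a cytochrome P450 on chromosome 4, was at 10.3, 8.31 and 19.2 CPM in ros1-3 and 101, 71 and 77.8 CPM in ros1-4 (log2 -2.75, SE 0.24, adjusted p by edgeR = 1.3e-07), with wild type at 70.8 to 81.8 CPM. Non-coding RNA loci were among the largest falls too, with AT3G26612 at a log2 fold change of -3.78 (SE 0.47) and AT2G26355 at -2.49 (SE 0.18).

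Among the genes higher in ros1-3, AT2G25964, an uncharacterized protein, stood at 67.2, 43.1 and 49.1 CPM in ros1-3 and 13.5, 14.5 and 16.4 CPM in ros1-4 (log2 1.84, SE 0.15, adjusted p by edgeR = 9.21e-08). ACX5, a peroxisomal acyl-CoA oxidase that starts the beta-oxidation of fatty acids, stood at 71.2, 74.8 and 80 CPM against 33.3, 30.1 and 30.5 CPM (log2 1.26, SE 0.11, adjusted p by edgeR = 1.3e-07). CID7, a protein with a domain that binds poly(A)-binding protein, was at 136, 132 and 128 CPM against 73.1, 78 and 81.7 CPM (log2 0.77, SE 0.09). For these 3 genes ros1-3 was the group apart from wild type, which lay at 12.5 to 17.3, 29.8 to 34.5 and 82.6 to 87.2 CPM. PRP2, a proline-rich protein of the cell wall, showed another order, with 71.6, 127 and 88.1 CPM in ros1-3, 39.8, 30.3 and 28 CPM in ros1-4 and 113, 94.1 and 85.2 CPM in wild type (log2 1.54, SE 0.18, adjusted p by edgeR = 1.98e-05). There ros1-3 overlapped wild type and ros1-4 was the group apart.

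A further 5 genes that were higher in ros1-3 stood at 21.2 CPM or less in each mock library of the alleles. BGLU35, a beta glucosidase, was at 2.31, 10.8 and 7.25 CPM in ros1-3, 0.398, 0 and 0.561 CPM in ros1-4 and 8.26 to 17.1 CPM in wild type (log2 4.18, SE 0.72, adjusted p by edgeR = 0.00242). ALB3, which inserts light-harvesting proteins into the thylakoid membrane, had 4.83, 3.27 and 5.02 CPM against 0.597, 0.727 and 0.561 CPM (log2 2.77, SE 0.46, adjusted p by edgeR = 0.0016). Nearly all reads kept for ALB3 were those assigned to its second transcript model, 53 in ros1-3 and 9 in ros1-4, so the value does not stand for the whole gene. AT2G34610, annotated as a cotton fiber protein, had 4.2, 6.8 and 9.2 CPM against 0.597, 1.45 and 1.12 CPM (log2 2.63, SE 0.44, adjusted p by edgeR = 0.00174). CYP71B23, a cytochrome P450, was at 13.9, 21.2 and 19.8 CPM against 5.77, 7.51 and 5.98 CPM (log2 1.50, SE 0.23, adjusted p by edgeR = 0.000797), with wild type at 17.5 to 22.4 CPM. MSRB5, which repairs oxidized methionine and was chosen after its values were seen, was higher in wild type than in both alleles, at 27.8 to 44.4 CPM, and at 9.66, 12.3 and 14.8 CPM in ros1-3 and 5.58, 5.57 and 3.92 CPM in ros1-4 (log2 1.28, SE 0.26). Its call ended without ros1-3 mock replicate 3 (1.13) or ros1-4 mock replicate 3 (1.12). MSRB5 has 2 transcript models, and reads that fit both were not counted, so its value does not stand for the whole gene.

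Some rises belong to features that share reads with many copies or with organelles. AT3G41768, an 18S ribosomal RNA chosen after its values were seen, stood at 4083 to 6800 CPM in ros1-3, 1634 to 2472 CPM in ros1-4 and 8267 to 11132 CPM in wild type (log2 1.37, SE 0.23, adjusted p by edgeR = 0.00215). AT2G07732, a Rubisco large chain sequence within the nuclear genome, was at 104, 170 and 104 CPM against 35.8, 29.1 and 56.4 CPM, with wild type at 250 to 315 CPM (log2 1.63, SE 0.28, adjusted p by edgeR = 0.00281). Both follow the order of the multiply aligned share, which was 9.8% to 13.0% in wild type mock, and both calls were lost with that share as a covariate, at log2 fold changes of 0.56 and 0.79.

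The called genes were not spread evenly over the genome. Chromosome 2, which carries ROS1, held 83 of the 201 (41.3%) and 15.2% of the tested genes. Of its 2402 tested genes 3.46% were called, 32 higher and 51 lower, against 0.897% of 4124 on chromosome 1, 1.01% of 3157 on chromosome 3, 0.957% of 2403 on chromosome 4 and 0.692% of 3756 on chromosome 5. Within chromosome 2, the stretch from 8 to 16 Mb, chosen after the calls were seen, held 71 called genes of 1200 (5.92%). The rest of chromosome 2 held 12 of 1202 (0.998%) and the other chromosomes together 118 of 13440 (0.878%). The megabases from 9 to 10 Mb and from 11 to 12 Mb had 15 of 135 (11.1%) and 13 of 149 (8.72%). The share was 6.04% from 15 to 16 Mb, where ROS1 lies, and 0.521% from 16 to 17 Mb. In the 8 to 16 Mb stretch 26 genes were higher and 45 lower. It holds SEH, AT2G26750, AT2G21080, AT2G21045, AT2G33220, AT2G35810, AT2G25964, ACX5, CID7, PRP2 and TO1. AT2G23330, AT2G24755 and AT2G21840, which had no counted read in ros1-3 mock, lie there too. The number on chromosome 2 was 63 to 85 when single libraries of the contrast were left out and 46 with the covariate of multiply aligned reads.

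**Figure D3:**
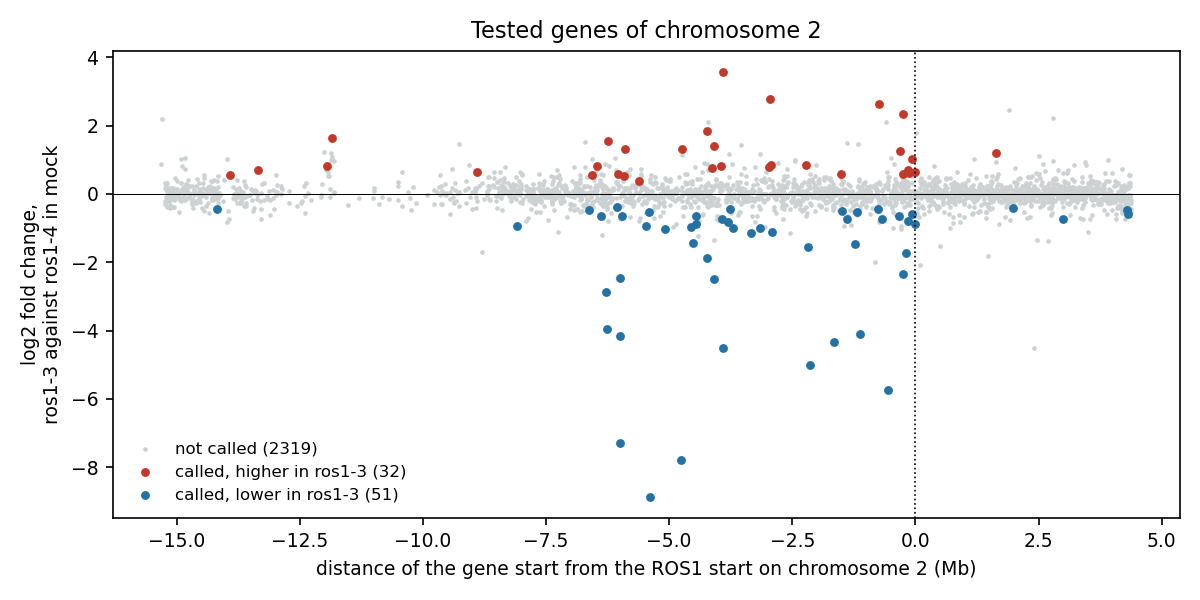
Log2 fold change of ros1-3 against ros1-4 in mock for each of the 2402 tested genes of chromosome 2 (vertical axis) by distance of the gene start from the ROS1 start (horizontal axis, Mb, dotted line at 0). Red points are the 32 called genes higher in ros1-3 and blue points the 51 lower, most of them in the 8 Mb to the left of ROS1.

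The same contrast under ABA uses separate libraries and so shows which mock differences were found again. The multiply aligned share was higher in ros1-3 there too, at 5.6% to 7.48% against 3.86% to 4.46% in ros1-4. Repeated calls are therefore not free of that share. Of the 201 genes, 121 (60.2%) were also called under ABA in the same direction, 43 higher and 78 lower, and none were called in the opposite direction. They made 27.4% of the 442 genes called under ABA (2.79% of those tested), of which 201 (1.27%) were higher and 241 (1.52%) lower. A further 75 had the same sign without both calls, so that 196 shared their sign, and 5 had the opposite sign. The median absolute log2 fold change of the 201 was 0.55 under ABA. Within the 8 to 16 Mb stretch of chromosome 2, 53 of 71 were also called under ABA, and on chromosomes 1, 3, 4 and 5 63 of 118. Mock calls of at least 2-fold were called again in 45 of 73 genes and smaller ones in 76 of 128. The 442 became 219, 266 and 199 without replicate 1, 2 or 3 of ros1-3 ABA and 254 without ros1-4 ABA replicate 1. Without single libraries the number of shared calls was 76 to 124, the lowest without ros1-3 mock replicate 3, and 80 without ros1-3 mock replicate 1.

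**Figure D4:**
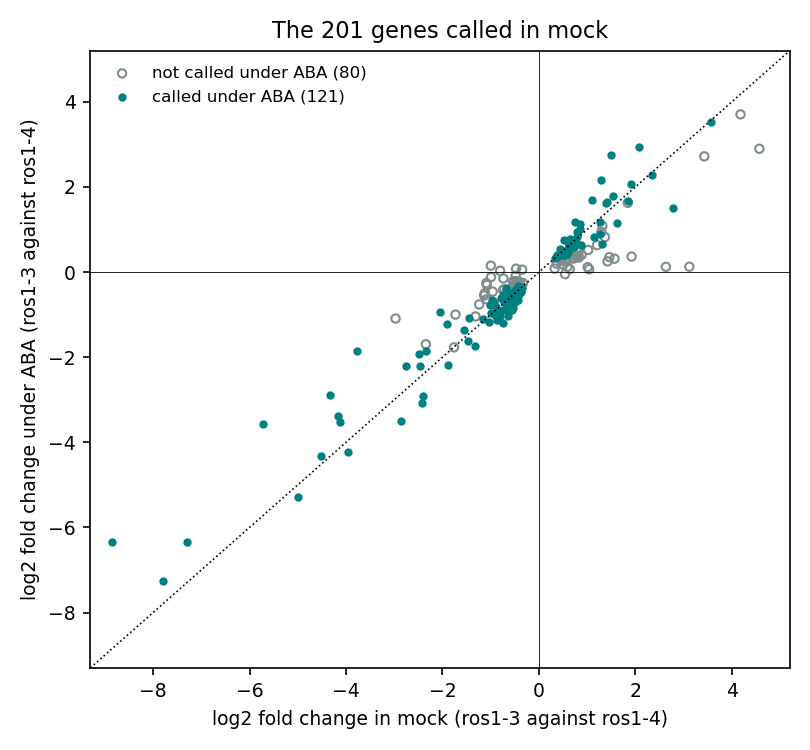
Log2 fold change of ros1-3 against ros1-4 under ABA (vertical axis) by that in mock (horizontal axis) for the 201 genes called in mock. Filled points are the 121 also called under ABA, open points the other 80, and the dotted line marks equal values. The points were chosen by their mock values.

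Several genes with a large mock difference had a like value under ABA, among them AT2G35810 (log2 2.29), AT2G21080 (-4.23), ACX5 (1.17), AT2G33220 (-1.61) and PRP2 (1.80). Others did not pass under ABA, among them AT2G34610 and ACD11. AT2G34610 stood at 0.501 to 2.05 CPM in wild type mock and at 67.3 to 73.5 CPM in wild type ABA, where ros1-3 had 78.4, 60.9 and 60.9 CPM and ros1-4 72.9, 48.8 and 61.1 CPM (log2 0.12, SE 0.15, adjusted p by edgeR = 0.753). The difference between its ABA and mock contrasts was -2.51 (SE 0.47, adjusted p by edgeR = 0.0923), short of the threshold. ACD11, a transfer protein for sphingolipids whose loss sets off cell death, had 84.6, 85.6 and 74.4 CPM in ros1-3 mock and 134, 138 and 136 CPM in ros1-4 mock (log2 -0.74, SE 0.08, adjusted p by edgeR = 3.63e-06). Under ABA it had 95.2, 97 and 94.5 CPM and 111, 108 and 100 CPM (log2 -0.15, SE 0.08), and the difference between the contrasts was 0.58 (SE 0.11, adjusted p by edgeR = 0.0923).

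In the test of whether the allele contrast differs between ABA and mock, 1 gene of 15853 (0.00631%) passed by edgeR, 691 (4.36%) had an unadjusted p under 0.05, and DESeq2 called 8. The gene was ZW9 (AT1G58270), a TRAF-like protein. In mock it stood at 14.7, 19.4 and 18.4 CPM in ros1-3, 24.7, 24.2 and 23 CPM in ros1-4 and 79.7 to 98.4 CPM in wild type. In ABA it stood at 124, 137 and 111 CPM, 74.6, 58.4 and 66.3 CPM and 290 to 352 CPM. So ros1-3 lay below ros1-4 in mock and above it under ABA, with both alleles below wild type throughout. The log2 fold change was -0.46 in mock (SE 0.15, adjusted p by edgeR = 0.162) and 0.89 under ABA (SE 0.11, adjusted p by edgeR = 3.86e-05), and the difference was 1.36 (SE 0.19, adjusted p by edgeR = 0.00557). BCAT4, which starts the chain elongation of methionine for glucosinolates, had the next smallest p, with a difference of 2.16 (SE 0.38, adjusted p by edgeR = 0.0779).

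Most genes of the stomatal lineage were not called, 11 of 13 tested. In ros1-3 1 was higher and 1 lower, beside 0.53% and 0.738% of all tested genes. The median log2 fold change of the list was -0.16 beside 0.0035 over all tested genes. EPF2 had 3.99, 4.03 and 5.3 CPM in ros1-3 mock, 1.59, 0.727 and 0.748 CPM in ros1-4 mock and 6.01, 6.58 and 8.45 CPM in wild type mock. The 3 groups did not overlap, with ros1-4 lowest and wild type highest. This is the order of ROS1 and also that of the multiply aligned share, and a link to either was not tested. The log2 fold change was 2.07 (SE 0.41, adjusted p by edgeR = 0.00776) in mock and 2.93 (SE 0.58, adjusted p by edgeR = 0.00591) under ABA. TMM, a receptor-like protein that works with the ERECTA kinases to sense such peptides, had 71, 50.6 and 64.4 CPM in ros1-3, 83.2, 86.3 and 92.1 CPM in ros1-4 and 33.5 to 38.2 CPM in wild type. It was lower in ros1-3 (log2 -0.49, SE 0.10, adjusted p by edgeR = 0.0135), and its call ended without ros1-3 mock replicate 2 (-0.36) or ros1-4 mock replicate 3 (-0.45) and, with the covariate of multiply aligned reads, at -0.29. The lineage factors SPCH, MUTE and FAMA had log2 fold changes of -0.21, -0.46 and -0.09 and did not pass.

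Of the genes that write or erase DNA methylation, the single called demethylation gene was ROS1, 1 of 8 tested (median 0.07). DML2, its close relative, had a log2 fold change of 0.03, and LIG1, the DNA ligase that can seal the repaired strand, had 0.13. None of 10 tested genes of RNA-directed DNA methylation passed, with a range of -0.46 to 0.47 and a median of 0.06. Of 9 maintenance genes 1 passed (median 0.19), beside 1.27% of all tested genes. MET1, the methyltransferase that copies CG methylation after replication, stood at 48.9, 35.8 and 45.4 CPM in ros1-3 and 27.5, 26.2 and 30.5 CPM in ros1-4, with wild type at 27.6 to 37.8 CPM (log2 0.63, SE 0.16, adjusted p by edgeR = 0.0483). MET1 fell short without ros1-3 mock replicate 1 (0.53) or 3 (0.60) and without any 1 of the ros1-4 mock libraries (0.59 to 0.70). CMT3, which methylates CHG sites, had 0.41, and DDM1, a chromatin remodeller, had 0.33, and neither passed.

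**Figure D5:**
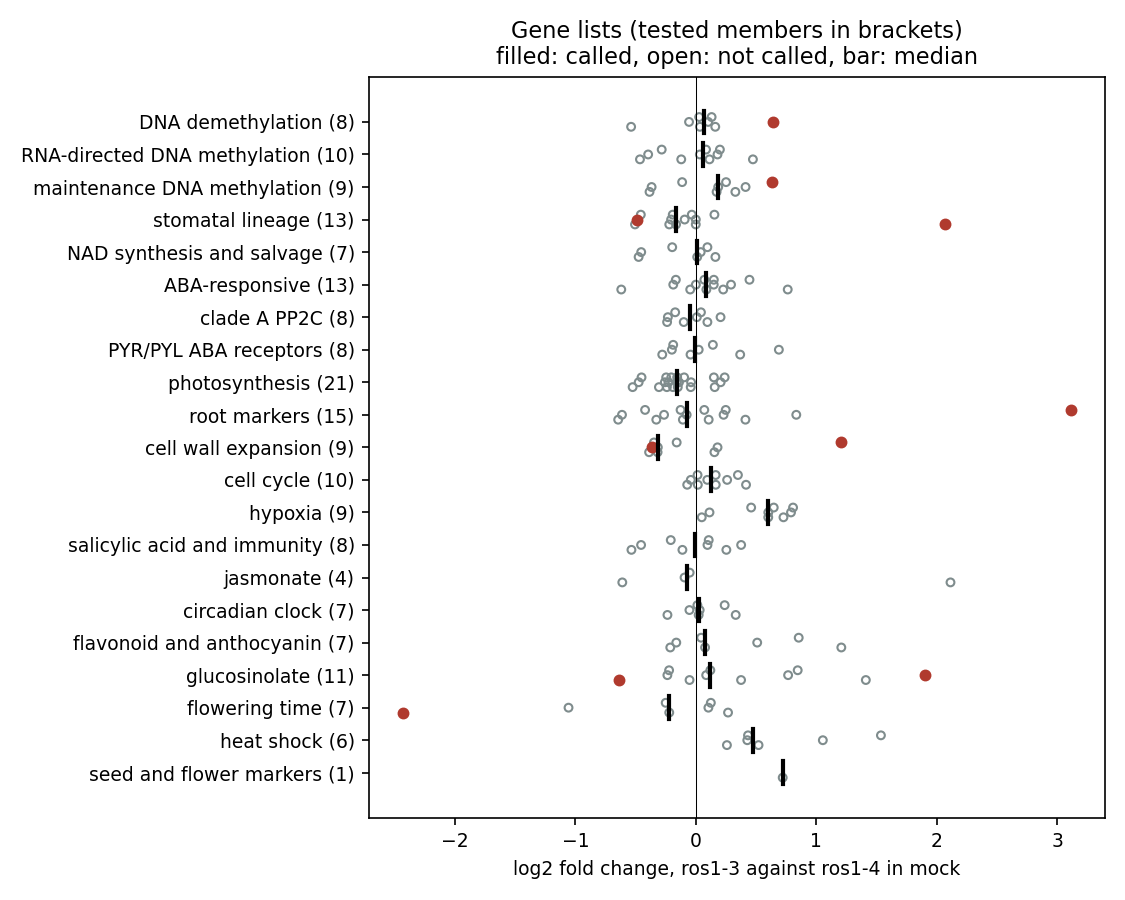
Log2 fold change of ros1-3 against ros1-4 in mock (horizontal axis) for the tested members of 21 gene lists (vertical axis, number tested in brackets). Filled red points passed the test, open points did not, and the bar is the list's median. Each list holds 0 or 1 called gene in each direction, and the medians of the hypoxia (0.60) and heat shock (0.48) lists lie to the right.

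The ABA signalling lists held no called gene in mock. None of 13 ABA-responsive genes passed (median 0.09), none of 8 clade A PP2C phosphatases, which hold the pathway off (median -0.05), and none of 8 PYR/PYL receptors (median -0.01). RD29A, a dehydration marker, had 15.7, 18.9 and 20.9 CPM in ros1-3 and 13.1, 12.4 and 7.29 CPM in ros1-4 (log2 0.76, SE 0.25, adjusted p by edgeR = 0.167). These libraries did not overlap, but the difference did not pass. None of 7 tested genes of NAD synthesis and salvage passed either (median 0.01). NIC3, a nicotinamidase of the salvage route, had 4.2, 5.04 and 5.3 CPM in ros1-3 and 6.17, 4.85 and 8.41 CPM in ros1-4 (log2 -0.45, SE 0.31, adjusted p by edgeR = 0.581), with overlapping libraries.

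In the hypoxia and heat shock lists every value was positive and none passed. All 9 tested hypoxia genes had a positive log2 fold change, from 0.05 to 0.81, with a median of 0.60. HRA1, a factor that restrains the hypoxia response, had 8.82, 11.6 and 14.5 CPM in ros1-3 and 5.38, 8.24 and 8.41 CPM in ros1-4 (log2 0.65, SE 0.25, adjusted p by edgeR = 0.254). Under ABA the median of the list was 0.21. All 6 tested heat shock genes were positive as well, from 0.26 to 1.54, with a median of 0.48 in mock and 0.37 under ABA. HSP17.6II, a small chaperone, had 4.2, 4.28 and 3.62 CPM against 1.39, 1.94 and 0.935 CPM (log2 1.54, SE 0.45, adjusted p by edgeR = 0.101).

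Metabolic and developmental lists held single calls. Of 11 tested glucosinolate genes 1 was higher and 1 lower in mock (median 0.12), beside 0.53% and 0.738% of all tested genes. Under ABA 5 were higher and 1 lower (median 0.84), beside 1.27% and 1.52% of all tested genes. CYP79F1, which makes aldoximes from elongated methionine, had 9.03, 6.04 and 10.9 CPM in ros1-3 and 1.99, 4.12 and 1.12 CPM in ros1-4 (log2 1.90, SE 0.44, adjusted p by edgeR = 0.0279). That call was lost without replicate 1 or 3 of ros1-3 mock (1.86 and 1.73) or of ros1-4 mock (1.81 and 1.53). TGG2, a myrosinase that breaks glucosinolates down, had 109, 112 and 106 CPM against 177, 191 and 145 CPM (log2 -0.64, SE 0.11, adjusted p by edgeR = 0.00265). Of 7 flowering genes 1 was lower (median -0.22). MAF5, a MADS-box repressor related to FLC, had 1.89, 0.252 and 1.11 CPM in ros1-3 and 2.79, 7.76 and 8.22 CPM in ros1-4, all below wild type (log2 -2.43, SE 0.51, adjusted p by edgeR = 0.0139). It lost its call without ros1-3 mock replicate 2 (-1.99) or 3 (-2.42) or ros1-4 mock replicate 2 (-2.27) or 3 (-2.14). CYP79F1, TGG2 and MAF5 have several transcript models each, and reads that fit more than 1 were not counted. Their values thus do not stand for the whole gene.

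IRT1, NAS4 and NAS1, genes of iron uptake and transport, were higher in ros1-3. IRT1, the main iron importer of the root epidermis and the 1 called gene of 15 root markers (median -0.08), had 3.15, 2.52 and 5.85 CPM in ros1-3 and 0.398, 0.485 and 0.374 CPM in ros1-4 (log2 3.12, SE 0.65, adjusted p by edgeR = 0.0136). Its call ended without ros1-3 mock replicate 3 (2.72) or without any 1 of the ros1-4 mock libraries (3.04 to 3.22), and under ABA the value was 0.12. IRT1 has 2 transcript models. The second had 44 reads in ros1-3 mock and 6 in ros1-4 mock, and the first had 2 and 0. Reads that fit both were not counted, so the value of IRT1 does not stand for the whole gene. Nicotianamine synthases make a chelator that carries iron and zinc and were chosen as a family after their values were seen. Of 4 tested, 2 were higher in ros1-3 and none lower, beside 0.53% of all tested genes higher and 0.738% lower. NAS3 and NAS2 had log2 fold changes of -0.64 and 0.26 in mock and did not pass. NAS4 had 7.14, 4.53 and 6.69 CPM against 2.19, 1.45 and 2.43 CPM (log2 1.57, SE 0.32, adjusted p by edgeR = 0.0103). NAS1 had 17.8, 13.3 and 22 CPM against 9.36, 9.45 and 7.1 CPM (log2 1.04, SE 0.24, adjusted p by edgeR = 0.0272). NAS4 lost its call without ros1-3 mock replicate 1 (1.43) or 3 (1.51) or ros1-4 mock replicate 2 (1.40), and NAS1 without ros1-3 mock replicate 1 (1.03) or 3 (0.87) or any 1 of the ros1-4 mock libraries (0.91 to 1.11). Under ABA the log2 fold changes were 0.31 for NAS4 (adjusted p by edgeR = 0.753) and 0.07 for NAS1 (adjusted p by edgeR = 0.962), neither of which passed, and NAS3 was higher in ros1-3 (1.06, adjusted p by edgeR = 0.016).

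Called genes of the cell wall lay in both directions. Of 9 tested genes of cell wall expansion 1 was higher and 1 lower, with a median of -0.32, beside 0.53% and 0.738% of all tested genes. EXPA8, an expansin that loosens walls, had 55, 70.5 and 80.8 CPM in ros1-3, 39.2, 32.2 and 18.1 CPM in ros1-4 and 67 to 98.2 CPM in wild type (log2 1.204, SE 0.22, adjusted p by edgeR = 0.00422). CESA1, a subunit of cellulose synthase, had 343, 401 and 366 CPM against 490, 471 and 470 CPM (log2 -0.37, SE 0.08, adjusted p by edgeR = 0.0225). CESA1 lost its call without replicate 1 or 3 of ros1-3 mock (-0.31 and -0.36) or replicate 1 or 2 of ros1-4 mock (-0.35 and -0.37). Wild type lay at 430 to 491 CPM for CESA1, so it overlapped ros1-4 alone.

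The other surface genes were chosen after their values were seen. The median of 27 tested arabinogalactan proteins with AGP symbols, glycoproteins of the cell surface, was -0.14. Fasciclin-like arabinogalactan proteins were taken apart from these, and of 13 tested 1 was lower, FLA2, and none higher (median -0.17). The call of FLA2 was lost in 8 of 15 alternatives. Beside 0.738% of all tested genes lower and 0.53% higher in ros1-3, 5 of the 27 were lower and none higher. With the covariate of multiply aligned reads 4 of these calls were lost, those of AGP17 (-1.01), AGP18 (-0.69), AGP26 (-0.59) and AGP21 (-0.39), and AGP7 was still called. AGP17 and AGP21 also lost their calls without replicate 1 (-0.87 and -0.50) or 3 (-0.79 and -0.51) of ros1-3 mock, and AGP21 without ros1-4 mock replicate 2 (-0.42). AGP7 had 105, 102 and 91.4 CPM against 143, 238 and 181 CPM (log2 -0.91, SE 0.15, adjusted p by edgeR = 0.00172), and AGP18 had 101, 113 and 83.6 CPM against 167, 184 and 151 CPM (log2 -0.75, SE 0.13, adjusted p by edgeR = 0.00264). Of the leucine-rich repeat extensins LRX1, LRX2 and LRX3, which tie the wall to the membrane, the last 2 were lower. LRX1 (log2 -0.27) did not pass. LRX2 (-1.08) lost its call without replicate 1 (-1.03) or 3 (-0.91) of ros1-3 mock or ros1-4 mock replicate 1 (-0.96). LRX3 had 379, 536 and 396 CPM against 857, 695 and 783 CPM (log2 -0.83, SE 0.14, adjusted p by edgeR = 0.00215). RALF23, a secreted peptide of the family that LRX proteins bind, had a log2 fold change of -0.72 (SE 0.14, adjusted p by edgeR = 0.00577). POM1, a chitinase-like protein of cellulose assembly, had -0.45 (SE 0.08, adjusted p by edgeR = 0.00345) in mock and -0.45 under ABA. THE1, a receptor kinase that senses wall damage, had -0.41 (SE 0.09), and COB, an anchored protein needed for oriented cellulose, had -0.42 (SE 0.09). THE1 and COB lost their calls without replicate 1 (-0.39 and -0.35) or 3 (-0.38 and -0.39) of ros1-3 mock and without replicate 1 (-0.42 and -0.41) or 2 (-0.36 and -0.40) of ros1-4 mock, and RALF23 without ros1-3 mock replicate 3 (-0.63).

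Core histones, which package DNA, were likewise chosen after their values were seen. Of 34 tested 2 were higher and none lower (median 0.22), beside 0.53% of all tested genes higher and 0.738% lower. HIS4, a histone H4, had 68.4, 57.4 and 71.1 CPM in ros1-3, 41.2, 36.4 and 35.7 CPM in ros1-4 and 40.5 to 44.8 CPM in wild type (log2 0.80, SE 0.09, adjusted p by edgeR = 2.18e-05). HTB2, a histone H2B, had 139, 99.7 and 124 CPM against 78.5, 75.6 and 83.9 CPM (log2 0.61, SE 0.11, adjusted p by edgeR = 0.00394). Histone copies share much of their sequence, and single members are uncertain for that reason. None of 10 tested cell cycle genes passed (median 0.13), among them KNOLLE, the syntaxin of cell plates, with 65.1, 32.5 and 48.5 CPM in ros1-3 and 34.8, 35.9 and 39.4 CPM in ros1-4 (log2 0.42, SE 0.18). The summed level of the cell cycle list overlapped, at 258 to 365 CPM in ros1-3 and 252 to 320 CPM in ros1-4.

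The remaining lists held no called gene in mock. None passed among 21 photosynthesis genes (median -0.16), 8 of salicylic acid and immunity (median -0.01), 4 of jasmonate (median -0.07), 7 of the circadian clock (median 0.02) and 7 of flavonoids (median 0.08). LHCB4.1, an antenna protein of photosystem II, had log2 fold changes of -0.45 (SE 0.12, adjusted p by edgeR = 0.0827) in mock and -0.43 (SE 0.12, adjusted p by edgeR = 0.0683) under ABA. FDH, which oxidizes formate and was chosen after its values were seen, stood in the order ros1-3, ros1-4, wild type, at 234, 269 and 243 CPM, 411, 378 and 415 CPM and 697, 784 and 758 CPM (log2 -0.69, SE 0.10, adjusted p by edgeR = 0.000322).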

How the data were processed

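The authors deposited raw read counts per transcript model, 1 file per library. The submitters' processing notes name HTSeq 0.6.1, TopHat2 2.0.8, Trim Galore 0.2.8 and SAMtools, and TAIR10 as the genome. No source used here says if counting used strand. Each file lists 40466 models of 32399 loci and 5 summary lines that name no gene, among them multiply aligned reads, none of which entered library sizes or tests. Models were summed per locus. Where a locus has several models (5883 loci), a read that fits more than 1 is not counted, so levels of such loci are understated.

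Symbols, positions and sequences came from the RefSeq annotation of TAIR10.1, matched by locus for 31912 loci. Counts were tested in edgeR 4.0.16 (R 4.3.3) after filterByExpr and TMM scaling, by the quasi-likelihood F test of a single model of all 18 libraries with 1 coefficient per group. This left 15853 genes, 13437 with 1 model, at a common biological coefficient of variation of 0.0962 and 12 residual degrees of freedom. Genes with a p under 0.05 after Benjamini-Hochberg adjustment were called, whatever their fold. Levels are CPM scaled by TMM. SE is the size of the log2 fold change over the root of its F statistic. A fold against a group with no count uses 3 counts over the group. Ratios with 1 to 3 counts have exact 95% counting intervals. The procedure was tested on simulated data that held no difference in multiply aligned reads, so that test does not bear on this share.

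Named genes were ROS1, NIC3 and EPF2, the 15 largest folds per direction among called genes whose mean log2 CPM reached 1 and whose libraries did not overlap, up to 5 per direction with the smallest p, up to 4 called or 2 uncalled members per list, called genes with no count in 1 allele, the longest runs of called neighbours, and 3 interaction genes. Not all are named in the text. The contrast, genes and lists were chosen with earlier results of these data known. DESeq2 1.42.0, RLE scaling, other filters, a replicate block, fewer libraries and the multiply aligned share as a covariate were alternatives.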

Additional observations from a re-analysis of the deposited data

Results flagged for a closer look

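The difference between the allele contrasts under ABA and in mock passed the test for ZW9, a TRAF-like protein, at a log2 value of 1.36 by edgeR (SE 0.19, adjusted p = 0.00557, 3 libraries per group). In mock all 3 ros1-3 libraries lay below all 3 ros1-4 libraries, and under ABA all 3 lay above them. The group of 3 libraries is too small to examine single libraries for distance from the rest.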

How the results depend on the processing

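The number of genes differing between ros1-3 mock and ros1-4 mock was 201. It was 320 with no filter on low counts, 80 with the covariate of multiply aligned reads, 73 with a minimum of 2-fold, and 116 to 224 when single libraries were left out. RLE scaling (201), a filter at 1 CPM in 3 libraries (205), DESeq2 (232), only the libraries compared (140), only loci with 1 model (166) and, chosen after seeing the data, no wild type libraries (195) stayed within 1.5 times. Equal replicate numbers did not pair the libraries (correlations of deviations -0.16, -0.07 and -0.03), and a replicate block gave 173 calls. The number on chromosome 2 was 35 at a minimum of 2-fold, 46 with the covariate and 63 to 85 without single libraries. Calls under ABA numbered 97 and 267 under the first and second of these, and 199 to 351 without single libraries, where the main count was 442. Calls shared with ABA were 185 with no filter, 56 with the covariate, 40 at a minimum of 2-fold and 76 to 124 without single libraries. Genes whose contrast differed between treatments numbered 7 with no filter, 8 by DESeq2, 5 with only the libraries compared, 2 with the replicate block, 2 with the covariate, 5 without wild type and 1 to 3 without single libraries. The cause of these changes was not tested. The ROS1 level was 0.56 (log2) with the covariate and did not pass. Of 72 named called genes 34 kept their call in all alternatives run (15, or 14 for genes with several models), 38 lost it in at least 1, 34 with the covariate, and none changed sign. Uncalled values that changed sign were LOX2 (0.0793 with the covariate), BCAT4 (0.048 with the covariate, -0.1719 to 0.0122 without single libraries) and PI (-0.26 to 1.28 without single libraries). Depth limits genes of few reads most.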
